A study of Mus musculus with 20 samples.

Results

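Type I interferon-stimulated genes were followed in RNA of microglia from mice with and without amyloid pathology and with and without the complement receptor C3aR. The set held 43 genes chosen by symbol, of which 41 had a row among the 21315 gene symbols measured. Mx1 and Mx2 had no row and were not analysed here. All 41 genes passed the filter on low values (the mean scaled value over the libraries compared had to reach 1) in every comparison, so none was lost to it.

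Type I interferons bind the receptor IFNAR1/IFNAR2, whose kinases JAK1 and TYK2 activate the factor ISGF3, which holds STAT2 and IRF9. ISGF3 binds interferon-stimulated response elements in the promoters of genes whose products sense foreign nucleic acid, block viral replication or feed back on the pathway. In brains with amyloid deposits, a subset of microglia is known to carry such an interferon programme.

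The 20 libraries were made from CD45mid CD11b+ cells sorted from brains of 9-month-old mice on a C57BL/6 background. APP-KI stands for the APP NL-G-F knock-in, in which the humanized Aβ sequence of the mouse App gene carries the Swedish, Iberian and Arctic mutations and is expressed from the gene's own promoter. C3aR-KO stands for a germ-line deletion of C3ar1, and thus in every cell, not only in microglia. The groups were WT (n = 3), APP-KI (n = 3), C3aR-KO (n = 3) and APP-KI; C3aR-KO (n = 5), in which all microglia were sorted, and C3aR-positive WT (n = 3) and C3aR-positive APP-KI (n = 3), in which cells carrying a Td-tomato reporter placed in the C3ar1 locus were taken. The reporter line was thus particular to the C3aR-positive libraries, and so were their library numbers. The sort, the line and the library series (the leading digits of the library number) therefore cannot be told apart. Nothing in the sources used here ties a library to 1 animal, and p-values measure the spread between these libraries.

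Values are given as scaled values, which are the deposited values multiplied by 1 constant. Each deposited value was a number of reads over the upper quartile of all counts in that library, with no correction for gene length, so that levels of different genes are compared only per kilobase of exon. Libraries held 13939559 to 30388941 reads in the C3aR-positive groups and 42239056 to 76608464 in the others. In 4 libraries (APP-KI 4, C3aR-KO 1, C3aR-KO 2 and APP-KI; C3aR-KO 1), called low-complexity libraries here, only 12386 to 13249 genes had a read, against 14885 to 17445 in 15 others, and APP-KI 5 had a read on 21210 genes. Results that rest on these libraries are given with and without them. Y-linked transcripts (Ddx3y, Eif2s3y and Uty) were present in 1 of 3 WT, 2 of 3 APP-KI, 1 of 3 C3aR-KO and 5 of 5 APP-KI; C3aR-KO libraries and in none of the 6 C3aR-positive libraries, so that their share differed between the groups in each comparison except the C3aR-positive one and C3aR-KO against WT.

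C3ar1 was measured first as a check of the labels. Its scaled value was 276, 329.9 and 340.0 in WT and 165, 315 and 388 in APP-KI, against 68.1, 39.9 and 65.7 in C3aR-KO and 80.4, 77.4, 69.4, 75.9 and 61.9 in APP-KI; C3aR-KO. The knockout and intact groups did not overlap, and C3ar1 was lower by a log2 fold change of -2.39 ± 0.27 (SE) in C3aR-KO than in WT (adjusted p = 0.00339). The libraries labelled C3aR-positive APP-KI held 383, 251 and 201. Those labelled C3aR-positive WT held 71.0, 81.2 and 37.6, which was at the level of the knockout libraries and below every WT library. The label of these 3 libraries is therefore not borne out by C3ar1 RNA, and each direction drawn from them below is a direction against libraries with little C3ar1 RNA.

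Markers of microglia (P2ry12, Tmem119, Cx3cr1 and 6 others) were read in every library, with a summed scaled value of 9249 to 29680. Defining markers of other cells were low: the summed value of 9 T and NK cell markers was 3.75 to 78.8, of 6 B cell and plasmacytoid dendritic cell markers 0.337 to 27.9, of 6 neuronal markers 0.0453 to 21.8 and of 7 monocyte and neutrophil markers 29.4 to 363. In the C3aR-positive comparison, microglia markers summed to 23730 to 25660 in WT and 16980 to 18220 in APP-KI, astrocyte markers to 302 to 399.6 and 218 to 277, and oligodendrocyte markers to 86.4 to 107 and 149 to 159, each without overlap. Over all libraries the astrocyte sum was 209 to 399.6 and the oligodendrocyte sum 62.4 to 167. The sum of 6 endothelial markers, which include Flt1, was 43.3 to 89.2 in the libraries without APP-KI and 78.7 to 326 in those with it. Border macrophage markers (Mrc1, Cd163, Lyve1, F13a1, Pf4 and Cbr2) summed to 356 to 1184 without APP-KI and to 178 to 395 with it. Of the 12 genes induced by warm tissue dissociation, Atf3 and Nr4a1 rose in the C3aR-positive comparison and Jun, Hspa1a and Hspa1b fell, and their sum ranged from 2055 to 7023 over all libraries. The part of these cells in the results below was not tested, and in sorted bulk samples fewer cells of a type and less RNA per cell cannot be told apart.

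A response element was searched for in the promoters of the 41 genes. Genes of this class are known to carry such elements, so a share above that of all genes follows from their choice. It is given as background and is not a result of these libraries. The motif was GAAANNGAAA, read on both strands in windows of 300 bases (250 before and 50 after the start site) from RefSeq on build GRCm38.p6. A window was at hand for 32 of the 41 genes, and 19 of these held the motif (59.4%), against 3.99% of all 27025 symbols with a window. Among the genes higher in C3aR-positive APP-KI (below) it was held by 13 of 18, among those lower by 2 of 2, and among those not past the threshold by 4 of 12. A match is a description of letters and not a bound site. Stretches of 60 bases upstream of the start site are shown for some genes whose windows held the motif, of which Ifit1 did not pass the threshold (below). The stretches are on the strand of the gene, with the motif in capitals. They come from Gbp7 (chr3:142530263-142530322, + strand), which fell, and from Isg15 (chr4:156200857-156200916, - strand), Ifit1 (chr19:34640765-34640824, + strand), Ifit3 (chr19:34583353-34583412, + strand), Ifit3b (chr19:34607749-34607808, + strand), Oas1a (chr5:120907526-120907585, - strand), Bst2 (chr8:71537563-71537622, - strand) and Rsad2 (chr12:26456533-26456592, - strand).
Gbp7: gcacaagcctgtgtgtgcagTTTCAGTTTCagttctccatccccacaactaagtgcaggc
Isg15: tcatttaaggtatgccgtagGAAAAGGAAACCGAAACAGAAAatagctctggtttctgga
Ifit1: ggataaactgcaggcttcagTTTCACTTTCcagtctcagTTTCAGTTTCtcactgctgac
Ifit3: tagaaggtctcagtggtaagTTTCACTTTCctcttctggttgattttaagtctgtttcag
Ifit3b: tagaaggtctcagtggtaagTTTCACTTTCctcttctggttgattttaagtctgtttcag
Oas1a: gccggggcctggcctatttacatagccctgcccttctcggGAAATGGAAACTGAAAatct
Bst2: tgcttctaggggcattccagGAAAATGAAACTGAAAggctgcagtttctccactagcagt
Rsad2: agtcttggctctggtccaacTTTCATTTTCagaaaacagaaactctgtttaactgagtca
The first base of the motif lay 53 bases before the start site in Gbp7, 104 before it in Ifit1 and 130 before it in Bst2. Isg15 held 3 overlapping matches and Oas1a and Bst2 each held 2. Ifit3 and Ifit3b are near-identical copies whose printed stretches are the same, and reads of the pair may have been split between them. Gbp3, which also fell, held the motif 45 and 39 bases before 1 of its start sites. No match was found in the windows of Lgals3bp, Ifit2, Ifi44 and Herc6.

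In C3aR-positive microglia, interferon-stimulated genes were for the most part higher in APP-KI than in WT, and 2 guanylate-binding proteins were lower. Of the 41 genes, 23 rose and 2 fell (limma, adjusted p under 0.05 over 12312 genes), and 36 had a log2 fold change above 0. Over all genes tested, 13% rose and 9.71% fell. The median log2 fold change of the 41 genes was 1.13 and that of all genes -0.17, a shift that another scaling (median ratio) moved to -0.03. That scaling called 25 of the 41 higher and 2 lower, against 1846 and 605 of all 12312 genes. Values of the 2 groups did not overlap for 25 of the 41 genes upward and 2 downward, while 17.8% and 25.7% of all genes did not overlap in these directions. The comparison of levels by library is drawn for all 41 genes.

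**Figure D1:**
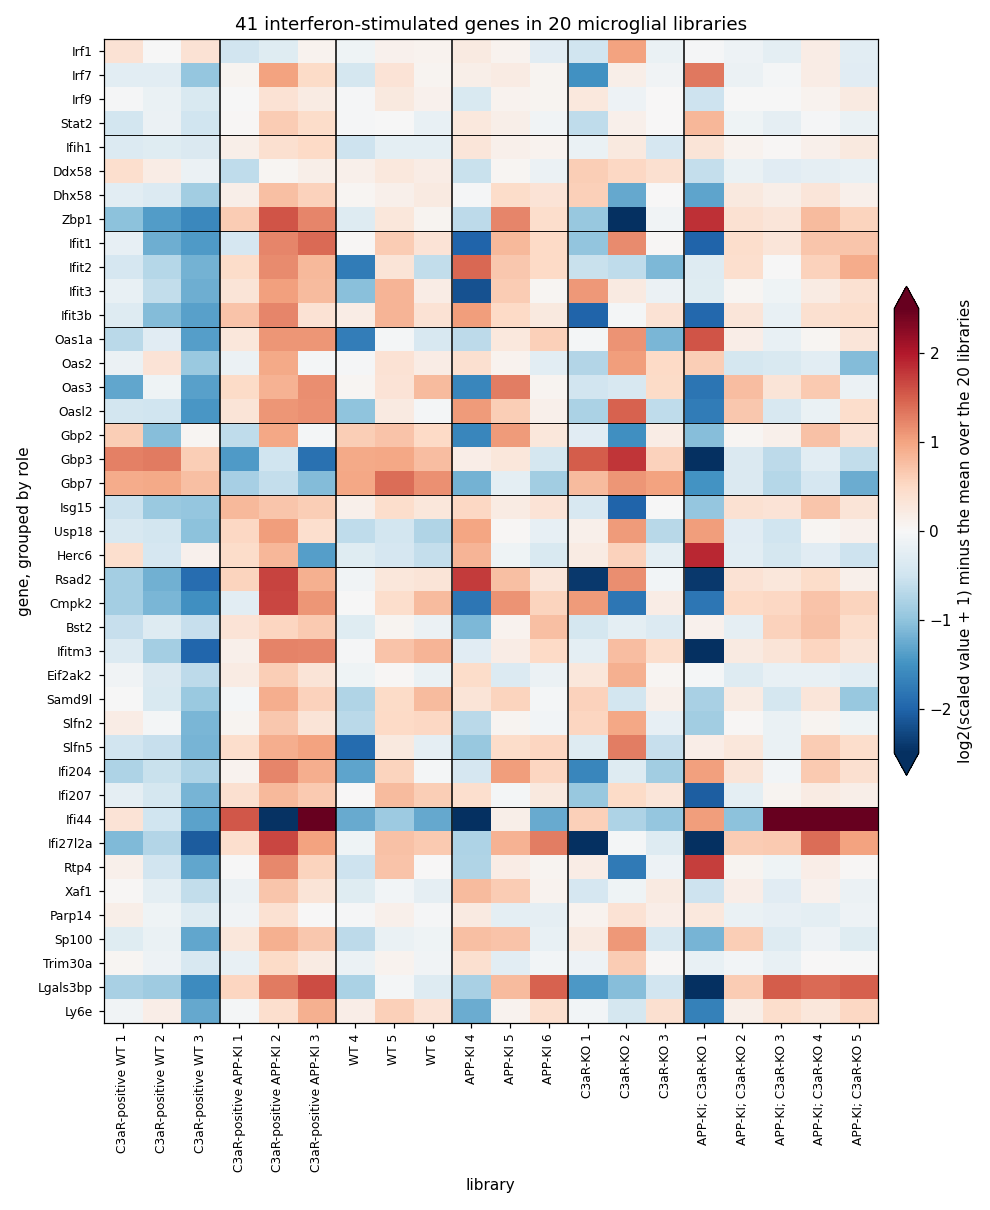
Heat map of the 41 genes (rows, grouped by role, groups parted by lines) in the 20 libraries (columns, conditions parted by lines), coloured by log2(scaled value + 1) minus the gene's mean over the 20 libraries, from -2.5 (blue) to 2.5 (red). The C3aR-positive WT libraries are below the mean for most genes and C3aR-positive APP-KI 2 and 3 above it, Gbp3 and Gbp7 show the opposite order, and APP-KI; C3aR-KO 1 holds 7 genes at 0.

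Of the 4 transcription factors of the pathway, STAT2 was higher in C3aR-positive APP-KI. Stat2, a subunit of ISGF3, was read at 49.9, 61.8 and 48.5 in C3aR-positive WT and at 69.8, 107 and 94.7 in C3aR-positive APP-KI. Every APP-KI library was above every WT library (log2 fold change 0.74 ± 0.18 SE, adjusted p = 0.0177). Irf7, the factor that amplifies interferon production, was at 11.4, 11.3 and 6.58 against 14.6, 28.8 and 19.7, groups that did not overlap without the difference passing the threshold (1.02 ± 0.35, adjusted p = 0.0604). Irf9, the DNA-binding part of ISGF3, was at 76.9, 69.9 and 59.9 against 77.2, 100.4 and 90.6 (0.37 ± 0.15, adjusted p = 0.106). Irf1, a factor induced by both types of interferon, was at 76.1, 58.4 and 76.6 against 42.3, 47.4 and 63.2, with the highest APP-KI library above the lowest WT library (-0.47 ± 0.19, adjusted p = 0.0987).

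Of the 4 sensors of nucleic acid, 3 rose. Zbp1, a sensor of Z-form nucleic acid that can start necroptosis, had the largest rise of the 41 genes on the log2(scaled value + 1) scale, which understates low genes such as Cmpk2 and Rsad2. It was read at 3.63, 2.59 and 2.10 in C3aR-positive WT and at 13.6, 26.8 and 20.9 in C3aR-positive APP-KI, without overlap (2.48 ± 0.39, adjusted p = 0.00187). Ifih1, which encodes MDA5, a sensor of long double-stranded RNA, was at 36.9, 38.0 and 36.3 against 52.4, 62.4 and 67.1 (0.69 ± 0.16, adjusted p = 0.0121). The WT libraries lay within a narrow range and below all APP-KI libraries. Dhx58, which encodes LGP2, was at 15.8, 15.0 and 10.1 against 21.5, 32.9 and 29.2 (0.98 ± 0.28, adjusted p = 0.0305). Ddx58, which encodes RIG-I, was at 63.7, 54.0 and 42.8 against 29.8, 48.7 and 52.0, groups that overlapped (-0.31 ± 0.24, adjusted p = 0.356).

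Among the effectors, all 4 IFIT and all 4 OAS genes had log2 fold changes above 0, and 3 of each group rose. IFIT proteins bind foreign RNA and hold back its translation. Ifit2 rose by 1.58 ± 0.29 and Ifit3 by 1.38 ± 0.36 on the log2 scale, whereas Ifit1 differed by 1.68 ± 0.62 without passing the threshold (adjusted p = 0.0764). OAS enzymes make the second messenger that activates RNase L. Oasl2 rose by 1.66 ± 0.35, Oas3 by 1.76 ± 0.52 and Oas1a by 1.61 ± 0.42, and Oas2 differed by 0.50 ± 0.45 (adjusted p = 0.442). Of the 3 genes of the ISG15 system, Isg15, the ubiquitin-like modifier, rose by 1.51 ± 0.43 and Usp18, its protease and a brake on the receptor, by 1.28 ± 0.29. Herc6, the ligase of ISG15 in the mouse, was at 63.4, 35.0 and 50.9 against 64.7, 84.4 and 17.4, with no direction shared by the libraries (-0.07 ± 0.49), and its sign changed between scalings.

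Of 8 antiviral effectors, 6 rose. Rsad2, which encodes viperin, was read at 1.96, 1.32 and 0.427 in C3aR-positive WT and at 6.82, 16.0 and 8.81 in C3aR-positive APP-KI (2.35 ± 0.49, adjusted p = 0.00844). Cmpk2, a nucleotide kinase encoded beside it on chromosome 12, was at 0.964, 0.586 and 0.214 against 1.91, 10.1 and 6.53 (2.00 ± 0.59, adjusted p = 0.0368). Neither gene overlapped between the groups, although 1 APP-KI library was near the WT libraries for Cmpk2. Bst2, which encodes tetherin, rose by 0.99 ± 0.21, Ifitm3, which blocks viral entry, by 1.92 ± 0.48, Eif2ak2, which encodes the kinase PKR, by 0.75 ± 0.18, and Slfn5 by 1.51 ± 0.24. Both genes of the set from the p200 family of DNA-binding proteins rose, Ifi204 by 1.44 ± 0.29 and Ifi207 by 1.24 ± 0.27. Outside the set, Ifi211 rose too, and Ifi203, Ifi209, Ifi213 and Mndal did not pass the threshold. Ifi203 was at 21.0, 15.2 and 8.76 against 12.1, 5.68 and 6.37, with overlap. Mndal was at 14.8, 19.4 and 8.04 against 8.32, 5.07 and 4.40, also with overlap.

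Of the 9 remaining genes, 3 rose and all had log2 fold changes above 0. Lgals3bp, a secreted glycoprotein that binds galectins, was read at 163, 154 and 96.1 in C3aR-positive WT and at 415, 705 and 890.1 in C3aR-positive APP-KI (2.24 ± 0.28, adjusted p = 0.000557). The lowest APP-KI library lay well above the highest WT library. Ifi27l2a, a small mitochondrial protein, was at 1.74, 2.54 and 0.392 against 6.93, 17.7 and 10.9 (2.35 ± 0.52, adjusted p = 0.0106). Sp100, a component of nuclear bodies, rose by 1.20 ± 0.30. Per kilobase of exon, the level of Ly6e in C3aR-positive APP-KI was 155 and that of Lgals3bp 235, and in WT 146 and 78.9, the highest 2 levels of the set in both groups, while Oas3 was at 0.774 and 0.533.

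The genes that fell were neighbours on chromosome 3. Guanylate-binding proteins are GTPases that attack the vacuoles of intracellular microbes and are induced most strongly by interferon gamma. Gbp7 (chr3:142530342-142550149 on GRCm38) was read at 69.0, 70.1 and 61.4 in C3aR-positive WT and at 19.8, 23.4 and 16.4 in C3aR-positive APP-KI (-1.71 ± 0.19, adjusted p = 0.000287). Gbp3 (chr3:142560026-142573209) was at 38.4, 39.6 and 24.2 against 5.22, 10.7 and 3.54 (-2.31 ± 0.39, adjusted p = 0.00276). For both genes the libraries of each group clustered apart. Gbp2 (chr3:142620602-142638008), the third guanylate-binding protein of the set, was at 11.9, 3.03 and 7.76 against 4.45, 15.4 and 7.15, with overlapping groups (0.23 ± 0.55, adjusted p = 0.784). Of the family genes read outside the set (Gbp4, Gbp5, Gbp6, Gbp8 and Gbp9), Gbp5 alone passed the threshold in this comparison, and fell.

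**Figure D2:**
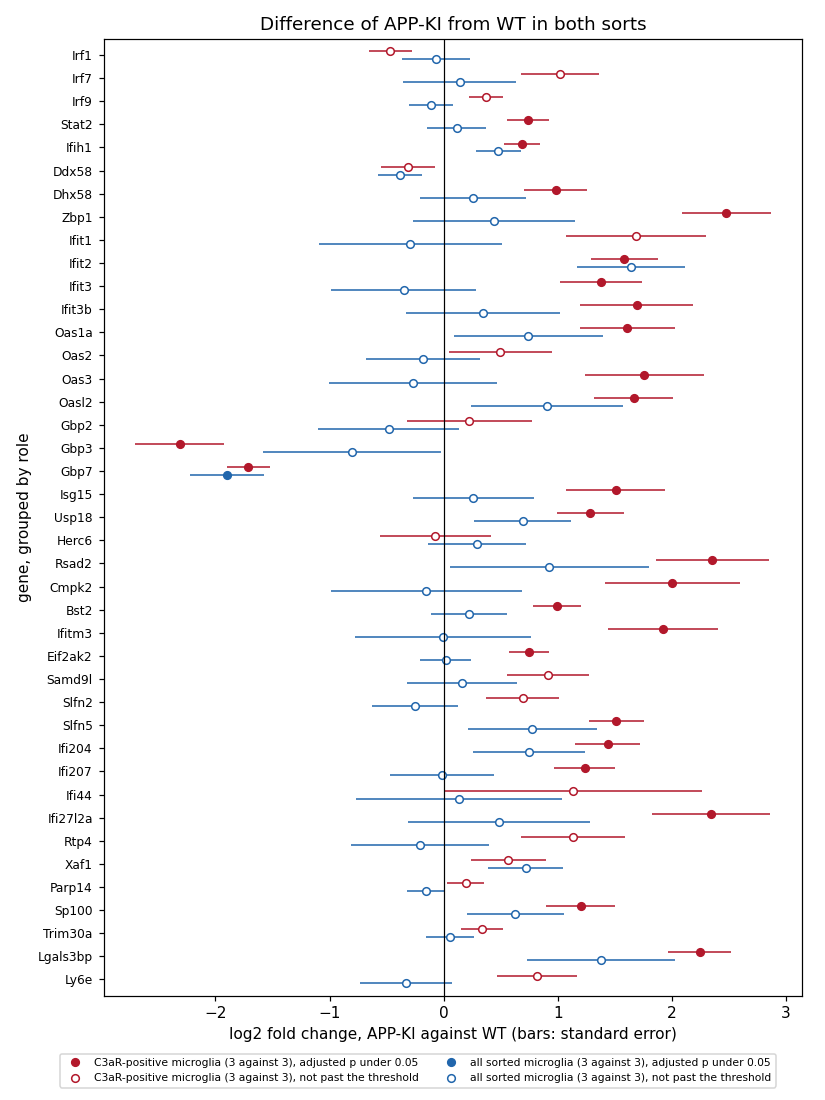
Log2 fold change of APP-KI against WT with its standard error for each of the 41 genes, in C3aR-positive microglia (red, 3 against 3 libraries) and in all sorted microglia (blue, 3 against 3), with filled points for an adjusted p under 0.05. In the C3aR-positive sort 25 points are filled and in all sorted microglia 1, Gbp7, which sits at -1.71 and -1.90.

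Some calls in C3aR-positive microglia were lost when a single library was left out. C3aR-positive WT 3 was the lowest WT library for 37 of the 41 genes, against 36.3% of all genes, and C3aR-positive APP-KI 1 the lowest APP-KI library for 34 of 41, against 32.3% of all genes. With any 1 of the 6 libraries left out, 11 of the 23 rises (Bst2, Ifi204, Ifi207, Ifi27l2a, Ifih1, Ifit2, Lgals3bp, Oasl2, Rsad2, Slfn5 and Zbp1) and both falls stayed past the threshold. Leaving out C3aR-positive APP-KI 2 ended 12 calls, and without it 12 genes rose. Leaving out C3aR-positive WT 3 ended 10, with 13 rising and a median log2 fold change of 0.79. A smaller group can end calls in any gene, and the share of all genes that lost their call is not given here. Isg15 lost its call without any 1 of the 6 libraries, and Cmpk2 and Oas3 each without any of 5.

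In all sorted microglia, APP-KI and WT differed in 1 of the 41 genes. Gbp7 was read at 70.7, 95.9 and 80.7 in WT and at 15.3, 30.1 and 19.3 in APP-KI, without overlap (-1.90 ± 0.32, adjusted p = 0.00308). No gene of the set rose, against 2.22% of the 12407 genes tested, and 1 fell, against 1.93%. At an unadjusted p under 0.05 (limma), 3 of the 41 genes were higher and 1 lower, against 12.4% of all genes in either direction. At the adjusted threshold, edgeR called 0 higher and 1 lower, against 223 and 186 of all 12407 genes. DESeq2 called 1 higher and 1 lower, against 412 and 309. The median log2 fold change of the set was 0.13, with 24 genes above 0, and that of all genes -0.01. It was -0.05, with 20 genes above 0, without the low-complexity libraries and APP-KI 5, and 0.55, with 32 above 0, without the low-complexity libraries and with a term for Y-linked transcripts.

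The low-complexity library APP-KI 4 held 3 of the 41 genes at 0, and without the 4 low-complexity libraries 7 genes rose and 4 fell, against 13.2% and 14.7% of 12563 genes. Lgals3bp was then at 496 and 805 in APP-KI 5 and 6, against 165, 278 and 231 in WT, and APP-KI 4 held 164 (1.64 ± 0.09 without it, adjusted p = 8.28e-06). Ifih1 was at 58.6, 51.5 and 50.5 in the 3 APP-KI libraries against 32.6, 39.8 and 39.7 in WT, with no overlap in either fit (0.48 ± 0.20, adjusted p = 0.277, with all libraries and 0.46 ± 0.09, adjusted p = 0.00596, without the low-complexity libraries). Zbp1 was at 5.02, 21.0 and 11.7 against 6.56, 10.5 and 8.82, so that the groups overlapped through APP-KI 4 (0.83 ± 0.26, adjusted p = 0.0443, without the low-complexity libraries). Bst2, Ifi27l2a, Oas1a and Xaf1 were the other genes that rose, by 0.54 to 1.26, and Gbp3, Ddx58 and Parp14 fell beside Gbp7, by -1.02, -0.24 and -0.26. When APP-KI 5, the library with reads on nearly every gene, was left out as well, 1 gene rose and 2 fell, against 7.88% and 7.81% of all genes. A term for Y-linked transcripts gave 1 rise and 1 fall with all libraries, against 2.74% and 3.02% of all genes. It gave 17 rises and 2 falls without the low-complexity libraries, against 17.2% and 13.4%, a fit in which 1 WT library (WT 4) carried these transcripts. WT 4 was the lowest WT library for 33 of the 41 genes, against 40.0% of all genes. It was also the WT library of library series 24.

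**Figure D3:**
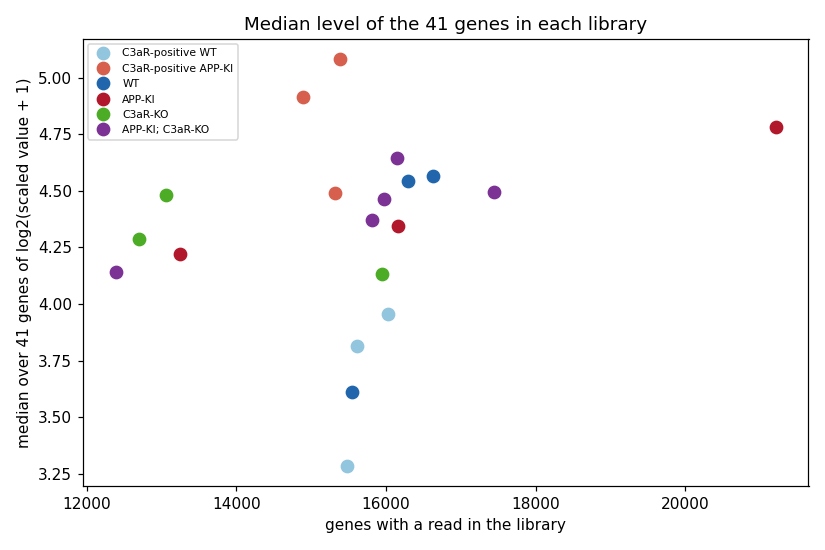
Median over the 41 genes of log2(scaled value + 1) in each library (vertical axis) against the number of genes with a read in that library (horizontal axis), coloured by condition. The C3aR-positive WT libraries (3.29 to 3.95) and WT 4 (3.61) have the lowest medians, C3aR-positive APP-KI 2 (5.08) the highest, and the 4 libraries below 14000 genes lie between 4.14 and 4.48.

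Whether the effect of APP-KI differed between the C3aR-positive sort and all sorted microglia was tested as a difference of differences. It was larger in the C3aR-positive sort for 36 of the 41 genes in the separate fits and for 37 of 41 in the fit of the 12 libraries, with a median difference of 0.86 on the log2 scale. None of the 41 differences passed the threshold, and neither did any of the 12589 genes tested (0%). At an unadjusted p under 0.05, 15 of the 41 genes were more positive and 1, Gbp3, more negative, against 11.8% of all genes in either direction. The lowest unadjusted p in the set was that of Ifi207 (limma, difference 1.50 ± 0.37, adjusted p = 0.394). DESeq2 on the recovered reads called 4 of the 41 higher (0.691% of all genes), Isg15, Ifi207, Ifitm3 and Zbp1, and edgeR none.

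Part of this difference lay on the WT side. C3aR-positive WT libraries were below WT for 37 of the 41 genes, with a median log2 difference of -0.43, while that of all genes was -0.02. Below an unadjusted p of 0.05 (limma) were 9 genes of the set, against 552 of all 12589, and none passed the threshold. C3aR-positive APP-KI libraries were above APP-KI for 35 of 41, with a median of 0.35, while that of all genes was -0.03. The 1 gene of the set below an unadjusted p of 0.05, Gbp3, was lower, against 657 of all 12589 genes in either direction. Isg15 shows the order: it was read at 1.77, 1.12 and 1.07 in C3aR-positive WT, 3.39, 4.47 and 3.91 in WT, 4.79, 3.60 and 4.11 in APP-KI and 6.05, 5.51 and 5.11 in C3aR-positive APP-KI. The 3 C3aR-positive WT libraries were thus lowest of these 12 and the 3 C3aR-positive APP-KI libraries highest, while WT and APP-KI overlapped. Isg15 was picked as the example after its values were seen. The sort, the reporter line and the library series cannot be told apart in these values.

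With all libraries in the fit, loss of C3aR was not accompanied by a detectable change in any of the 41 genes. Between C3aR-KO and WT, no gene of the set passed the threshold, and 0 were below an unadjusted p of 0.05, against 2.77% of all genes, and edgeR and DESeq2 called none either. Over all genes, 1 of 12407 (0.00806%) passed, which was C3ar1 itself. The median log2 fold change of the set was 0.01, with 22 genes above 0. Without the low-complexity libraries, which left 1 C3aR-KO library, it was -0.18, with 10 genes above 0, while that of all genes was 0.04. With the Y-linked term as well it was -0.29, with 9 genes above 0, while that of all genes was 0.03. Both medians of the set thus lay below those of all genes, on the strength of 1 C3aR-KO library. The 95% interval of the difference was narrow for Irf9 (-0.40 to 0.42), Ifih1 (-0.23 to 0.61) and Ddx58 (-0.08 to 0.76), and wide for Zbp1 (-2.83 to 0.20), which was at 3.92, 0 and 7.86 in C3aR-KO. For 12 of the 41 genes the interval lay within 1 log2 unit of 0 on both sides, and for 26 without the low-complexity libraries. For the others a change of that size could not be told from none.

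In mice carrying the APP knock-in, removal of C3aR gave 0 genes past the threshold, and over all genes C3ar1 was the 1 that passed (0.00806%). Unadjusted p-values were under 0.05 for 1.18% of all genes and, in the set, for Ifi44 (log2 fold change 2.69 ± 0.80) and Xaf1 (-0.65 ± 0.29), both with an adjusted p of 0.998, and DESeq2 and edgeR called none of the 41. The median log2 fold change was -0.09, with 14 genes above 0. It was -0.17, with 5 above 0, without the low-complexity libraries, and turned to 0.02, with 23 above 0, when APP-KI 5 was left out as well. Lgals3bp was read at 48.1, 445, 818, 772 and 810.0 in APP-KI; C3aR-KO, a span that covers the 164, 496 and 805 of APP-KI, and the lowest value in each group was that of a low-complexity library. Its difference was -0.39, with a 95% interval of -1.63 to 0.84, and without the low-complexity libraries -0.05, with an interval of -0.26 to 0.15. For Ifih1 the interval was -0.36 to 0.38 with all libraries and for Gbp7 -0.73 to 0.51. Over the set, the median width of the interval was 1.87 log2 units with all libraries and 0.859 without the low-complexity libraries, where 32 of 41 intervals lay within 1 log2 unit of 0.

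The interaction of both alleles likewise passed the threshold for none of the 41 genes and for none of the 12407 genes tested (0%), with no member under an unadjusted p of 0.05. DESeq2 and edgeR called none of the 41. The median interaction of the set was -0.18 on the log2 scale and changed sign, to 0.23, without the low-complexity libraries and APP-KI 5.

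In the absence of C3aR, the fall of Gbp7 and Gbp3 with APP-KI was again seen. Between APP-KI; C3aR-KO and C3aR-KO, 0 genes of the set rose, against 3.96% of all genes, and 3 fell, against 2.97%. Gbp7 was read at 62.5, 77.7 and 72.9 in C3aR-KO and at 12.04, 27.8, 21.4, 26.5 and 14.6 in APP-KI; C3aR-KO (-1.83 ± 0.29, adjusted p = 0.00107). Gbp3 was at 45.9, 56.1 and 23.7 against 0, 11.8, 9.47, 12.8 and 9.83 (-2.55 ± 0.69, adjusted p = 0.0392), and without the low-complexity libraries, which held the 0 and both highest values, the difference was -1.12 ± 0.21 (adjusted p = 0.00401). In neither gene did the groups overlap. The call of Gbp3 was lost when any 1 of 7 libraries was left out (WT 4, 5 or 6, C3aR-KO 1 or 2, or APP-KI; C3aR-KO 3 or 5). It was also lost under edgeR and DESeq2, with a pseudocount of 0.1, without the filter and without the mean-variance trend. A fit of only the groups compared, the replicate block and a term for Y-linked transcripts ended it too.

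Ddx58 was the third gene that fell. It was read at 72.6, 67.7 and 62.2 in C3aR-KO and at 31.0, 42.2, 38.7, 40.1 and 41.2 in APP-KI; C3aR-KO, without overlap (-0.81 ± 0.17, adjusted p = 0.0101). In WT it was at 51.5, 56.7 and 53.7 and in APP-KI at 31.9, 48.7 and 42.8, which did not overlap either (-0.38 ± 0.20, adjusted p = 0.482). The other 2 RIG-I-like receptors, Ifih1 and Dhx58, did not fall in these libraries: Dhx58 was at 29.3, 7.28 and 19.4 in C3aR-KO and at 7.04, 23.0, 21.3, 24 and 21.1 in APP-KI; C3aR-KO, and at 19.7, 20.9 and 22.7 in WT and 18.7, 26.6 and 24.6 in APP-KI.

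Without the low-complexity libraries, which left 1 C3aR-KO library against 4, 6 genes of the set were higher in APP-KI; C3aR-KO than in C3aR-KO and 5 lower, against 13.2% and 18.2% of 12563 genes. The spread of the lone C3aR-KO library is then assumed to be that of the other groups. That library, C3aR-KO 3, lacked Y-linked transcripts, and all 4 APP-KI; C3aR-KO libraries carried them. Genotype and these transcripts therefore cannot be told apart in this comparison. A term for them rests on WT 4 against WT 5 and 6, and WT 4 was the lowest WT library for 33 of the 41 genes. No conclusion is drawn from the calls made with that term below. Lgals3bp (1.92 ± 0.12), Ifi27l2a (1.39 ± 0.26), Bst2, Ifih1, Ifit2 and Oas1a were the genes that were higher, and Gbp3, Gbp7, Ddx58, Oas2 and Parp14 those that were lower. With a term for Y-linked transcripts as well, 11 genes were higher and none lower, against 9.58% and 7.90% of all genes.

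Across the 14 libraries of all sorted microglia, none of the 4 transcription factors passed the threshold in any comparison. Stat2 was at 67.3, 68.5 and 60.4 in WT, 83.0, 76.4 and 64.6 in APP-KI, 44.1, 74.99 and 69.5 in C3aR-KO and 123, 63.9, 58.5, 67.5 and 61.4 in APP-KI; C3aR-KO. Irf7 was at 9.96, 17.8 and 14.5 in WT, 15.3, 16.0 and 14.5 in APP-KI, 4.17, 15.5 and 12.9 in C3aR-KO and 35.9, 12.3, 13.4, 16.0 and 11.1 in APP-KI; C3aR-KO. In both genes the highest library was APP-KI; C3aR-KO 1, a low-complexity library. Irf9 was at 76.6, 92.7 and 83.9 in WT, 59.4, 83.3 and 81.5 in APP-KI, 93.3, 71.1 and 78.7 in C3aR-KO and 54.1, 77.2, 77.6, 83.6 and 91.2 in APP-KI; C3aR-KO. Irf1 was at 54.5, 63.7 and 62.7 in WT, 68.8, 63.2 and 48.1 in APP-KI, 41.5, 119 and 52.4 in C3aR-KO and 57.9, 54.1, 49.6, 67.3 and 49.1 in APP-KI; C3aR-KO. The groups overlapped in each of these 4 genes where APP-KI; C3aR-KO was compared with APP-KI.

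The genes with the largest rises in the C3aR-positive sort held several values at 0 in the low-complexity libraries. Rsad2 was at 4.01, 5.44 and 5.62 in WT, 16.8, 7.96 and 5.53 in APP-KI, 0, 10.9 and 4.08 in C3aR-KO and 0, 5.80, 5.46, 6.30 and 4.81 in APP-KI; C3aR-KO. Ifi27l2a was at 4.47, 8.87 and 8.33 in WT, 2.45, 9.74 and 13.4 in APP-KI, 0, 4.69 and 3.70 in C3aR-KO and 0, 8.16, 8.25, 14.6 and 10.9 in APP-KI; C3aR-KO. Cmpk2 was at 2.52, 3.79 and 5.06 in WT, 0, 6.70 and 4.18 in APP-KI, 6.37, 0 and 2.98 in C3aR-KO and 0, 4.00, 4.06, 4.80 and 4.18 in APP-KI; C3aR-KO. All values at 0 in these 3 genes came from low-complexity libraries. Herc6 was at 37.6, 34.9 and 30.8 in WT, 85.1, 43.3 and 35.8 in APP-KI, 54.4, 70.5 and 39.5 in C3aR-KO and 175, 39.0, 34.4, 38.4 and 32.3 in APP-KI; C3aR-KO. Its highest value was again that of APP-KI; C3aR-KO 1. Zbp1 was at 3.92, 0 and 7.86 in C3aR-KO and 32.5, 11.2, 10.6, 15.4 and 12.8 in APP-KI; C3aR-KO, without overlap (2.10 ± 0.63, adjusted p = 0.0627). Ifih1 was at 42.0, 55.8 and 35.1 against 59.0, 50.03, 47.9, 51.9 and 55.9, with overlap (0.30 ± 0.17, adjusted p = 0.363). Lgals3bp was at 106, 137 and 207 in C3aR-KO, below 4 of the 5 APP-KI; C3aR-KO libraries (1.08 ± 0.58, adjusted p = 0.313).

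**Figure D4:**
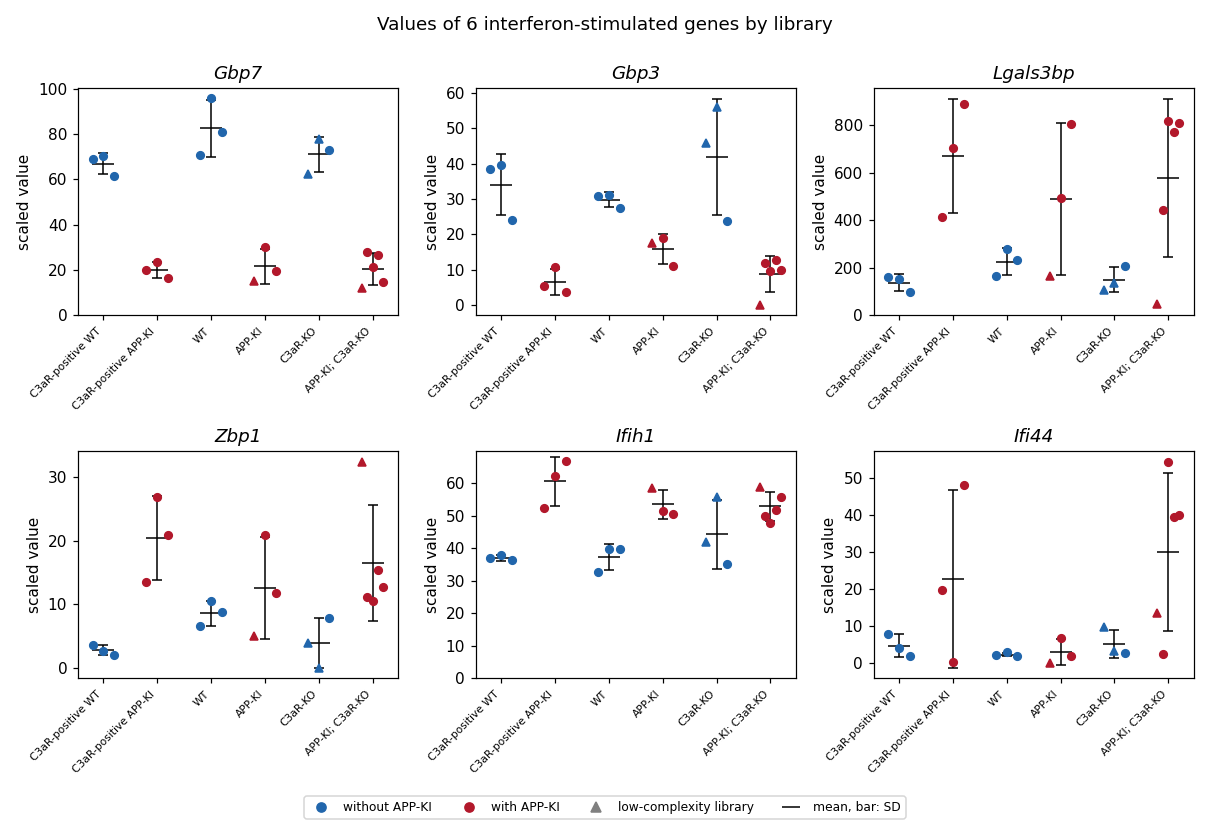
Scaled values of 6 genes of the set in the 20 libraries by condition (points), with the mean and SD of each condition (black), red for conditions with APP-KI and blue for those without, and triangles for the 4 low-complexity libraries. Gbp7 is between 61.4 and 95.9 in every library without APP-KI and between 12.04 and 30.1 in every library with it, whatever the C3ar1 genotype, and Ifi44 is high in some libraries of 2 conditions and low in the rest.

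Over the 6 conditions, the mean of Gbp7 was 66.8 ± 4.71 (SD, n = 3) in C3aR-positive WT, 82.4 ± 12.7 (n = 3) in WT and 71.0 ± 7.78 (n = 3) in C3aR-KO, and 19.9 ± 3.49 (n = 3) in C3aR-positive APP-KI, 21.5 ± 7.64 (n = 3) in APP-KI and 20.5 ± 6.99 (n = 5) in APP-KI; C3aR-KO. Among the groups without APP-KI, C3aR-KO overlapped with both others, while C3aR-positive WT lay just below WT, and the 3 groups with APP-KI overlapped. Gbp3 was split in the same way, with every library without APP-KI at 23.7 or more and every library with it at 19.0 or less. Gbp5, a neighbour of Gbp7 on chromosome 3 from the list of other interferon-stimulated genes, fell in the C3aR-positive comparison too (-1.23 ± 0.25, adjusted p = 0.00748), and was at 29.8, 31.0 and 26.7 in WT against 3.16, 22.2 and 12.8 in APP-KI. In C3aR-KO it was at 24.1, 34.9 and 25.2 and in APP-KI; C3aR-KO at 25.6, 12.2, 10.99, 16.9 and 10.6, groups that overlapped through the low-complexity library APP-KI; C3aR-KO 1.

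Ifi44 varied widely within 2 conditions. It was read at 19.5, 0.260 and 48.1 in C3aR-positive APP-KI and at 13.4, 2.41, 54.4, 39.3 and 39.9 in APP-KI; C3aR-KO, and in all other libraries at 9.51 or less. Its neighbour Ifi44l, 8776 bases away on chromosome 3, was at 3.88, 0 and 5.90 and at 0, 0.0141, 11.8, 9.18 and 8.78 in the same libraries. Ifi44l was at 0 in the 3 WT libraries, but at 5.08, 1.71 and 0 in C3aR-KO. In APP-KI it was at 0, 1.42 and 0.0185, and in C3aR-positive WT at 1.35, 0.439 and 0.142. The libraries high in Ifi44 in APP-KI; C3aR-KO (3, 4 and 5) were those of library series 26, and Y-linked transcripts were present in all 5. In C3aR-positive APP-KI the high and low libraries shared the series and lacked Y-linked transcripts. These 2 genes were described after their values were seen.

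The pathway upstream of the set was read in 36 genes with a row, of which 29 passed the filter. None of the 7 ligand genes (Ifnb1, Ifna2, Ifna4, Ifna5, Ifne, Ifnk and Ifng) passed it: Ifnb1 was at 0 in 12 of 20 libraries and at most at 0.105. In the C3aR-positive comparison 5 of the 29 genes rose and 5 fell, next to 13% and 9.71% of all genes. Of the receptor chains, Ifnar2 was at 136, 144 and 132 in C3aR-positive WT and at 194, 197 and 202 in C3aR-positive APP-KI (0.52 ± 0.10, adjusted p = 0.00632), while Ifnar1 was at 155, 178 and 169 against 128, 145 and 164 and overlapped. Ifngr1, a chain of the interferon gamma receptor, fell by -0.78 ± 0.14. Of the kinases and factors, Irf8 rose by 0.62 ± 0.11, whereas Jak1 (389.6, 415 and 386 against 321, 339 and 387) and Tyk2 (97.4, 115 and 116 against 86.3, 98.9 and 115) did not pass the threshold.

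Of the genes that sense nucleic acid upstream of interferon, Sting1 fell in the 3 comparisons of APP-KI with its control. Sting1, the adaptor of cGAS, was at 305, 302 and 274 in C3aR-positive WT and at 120.1, 143 and 116 in C3aR-positive APP-KI (-1.21 ± 0.12, adjusted p = 0.000194). It was at 339, 357 and 334 in WT, 45.4, 152 and 159 in APP-KI, 346, 241 and 317 in C3aR-KO and 94.5, 164, 158, 164 and 177 in APP-KI; C3aR-KO. Every library with APP-KI was below every library without it. Cgas, the sensor itself, was at 31.0, 36.9 and 31.9 against 28.6, 31.7 and 22.6 in the C3aR-positive groups and did not pass the threshold. Tlr9 and Myd88 also fell in the C3aR-positive comparison, by -0.85 ± 0.11 and -0.95 ± 0.16, and Samhd1, a nuclease that restrains sensing, by -0.49 ± 0.13. Rnaseh2b, a subunit of the nuclease RNase H2, rose by 1.23 ± 0.39 (adjusted p = 0.0484). Ikbke, a kinase that activates IRF3, rose by 2.18 ± 0.39 there and by 2.27 ± 0.52 in all sorted microglia (adjusted p = 0.0218).

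Of 41 tested genes in a list of other interferon-stimulated genes, 7 rose and 1 fell in the C3aR-positive comparison, next to the same 13% and 9.71% of all genes, 25 with a log2 fold change above 0. Cxcl10, a chemokine for T cells, was at 1.45, 1.22 and 0.854 against 6.05, 6.33 and 8.26 (1.86 ± 0.43, adjusted p = 0.0132). The others that rose were Helz2, Ifi211, Oas1g, Slfn9, Tor3a and Trim25, by 0.69 to 1.76. None of this list passed the threshold in all sorted microglia with all libraries, and Phf11d alone rose in APP-KI; C3aR-KO against C3aR-KO (1.25 ± 0.35, adjusted p = 0.0458).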

How the data were processed

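RNA of sorted microglia was sequenced in 20 libraries, made with a total RNA kit that adds molecular identifiers. Whether these were used in counting is not given in the sources used here, so that reads may include PCR duplicates. Per the methods and the labels, the authors trimmed the reads, aligned them to mm10 with TopHat and counted them with featureCounts, and the submitters' processing notes also name cutadapt, TopHat2 and DESeq2. The deposited values are named FPKM but are a signal the authors made by dividing each gene's reads by the library's 75th percentile of counts: whole reads were recovered for 100% of values in all 20 libraries (tolerance 0.01). They were multiplied here by 35.2 to give scaled values.

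Genes with a mean scaled value of 1 or more entered limma 3.58.1 as log2 of the scaled value plus a pseudocount of 1 (moderated, with a mean-variance trend, R 4.3.3), with Benjamini-Hochberg adjustment over all genes tested and a threshold of 0.05. Fold changes on this scale understate the change of low genes. A fit held the 6 C3aR-positive libraries, another the remaining 14 with a term for the library series, and a last one the 12 WT and APP-KI libraries for the difference of APP-KI effects. Alternatives used edgeR 4.0.16 and DESeq2 1.42.0 on the recovered reads, other scalings, filters and pseudocounts, and left out each library. Leaving out low-complexity libraries (under 14000 genes with a read) or APP-KI 5, and a term for Y-linked transcripts, were alternatives chosen after seeing the data. The scripts were tested on simulated data. Members and lists were chosen with earlier results of these data known.

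Values in every library were printed for members past the threshold in a comparison of the 14 libraries, for the 4 transcription factors and 4 sensors, and for the 5 largest rises and falls in the C3aR-positive comparison. Of the pathway list, Ifnar1, Ifnar2, Jak1, Tyk2, Cgas, Sting1, the ligands and genes past the threshold were named, except that 1 gene of this list is not reported here by name. Where 21 rows repeated a symbol, rows were summed, giving 21315 symbols. Samples were grouped by their labels.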

Additional observations from a re-analysis of the deposited data

Results flagged for a closer look

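In the group of 5 APP-KI; C3aR-KO libraries, library 1 stood apart from the other 4 by Dixon's criterion in 14 of the 41 genes. It was the highest library for 8 of them, with scaled values of 35.9 for Irf7, 123 for Stat2, 32.5 for Zbp1, 27.1 for Oas1a, 37.6 for Usp18, 175 for Herc6, 35.0 for Rtp4 and 201 for Parp14. It was the lowest for the other 6, at 7.04 for Dhx58 and at 0 for Ifit1, Gbp3, Rsad2, Cmpk2 and Ifitm3. Chance alone marks about 1 in 20 groups in this way, but this library stood apart by the same criterion in 34.3% of the 12407 genes tested (highest in 20.3%, lowest in 14%), so that the share among the 41 genes was near that of all genes. This library also had the fewest genes with a read, 12386, and its part in these values was not tested.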

How the results depend on the processing

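The number of genes past the threshold depended on the setting in 4 comparisons. For fits with 1 library left out, without a filter or at an adjusted p under 0.0005, the share over all genes is not given here. In C3aR-positive APP-KI against C3aR-positive WT, 25 genes were called, and 16 without a filter, 1 at an adjusted p under 0.0005 and 14 to 24 with 1 library left out, with medians of 0.79 to 1.34. In APP-KI against WT, 1 gene was called, and 0 at an adjusted p under 0.0005, 2 with DESeq2, 1 to 3 with 1 library left out, 11 without the low-complexity libraries, 3 without these and APP-KI 5, 2 with a term for Y-linked transcripts and 19 with that term and without the low-complexity libraries. In APP-KI; C3aR-KO against C3aR-KO, 3 genes were called, and 0 at an adjusted p under 0.0005, 2 to 5 with 1 library left out, 11 without the low-complexity libraries, 13 without these and APP-KI 5, and 11 with the Y-linked term and without the low-complexity libraries. The median log2 fold change there was 0.02, and -0.23 to 0.17 with 1 library left out, 0.20 without the low-complexity libraries and APP-KI 5 and 0.60 with the Y-linked term and without the low-complexity libraries. Under the same 2 settings the median interaction was 0.23 and 0.18. Without the low-complexity libraries, the Y-linked term rests on WT 4 against WT 5 and 6. For the difference of APP-KI effects, 0 genes were called and DESeq2 called 4, and the median was 0.37 with the Y-linked term and without the low-complexity libraries. Single genes changed sign when 1 library was left out: in APP-KI against WT, Bst2 (-0.14 to 0.62), Oas1a (-0.11 to 1.11) and Zbp1 (-0.029 to 0.85), and in APP-KI; C3aR-KO against C3aR-KO, Oas1a (-0.28 to 0.98). Oas2 there was at 0.13 with the Y-linked term. The cause was not tested.

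Same-numbered libraries gave r of -0.012 to 0.038 in the C3aR-positive groups and 0.093 to 0.254 in WT and APP-KI. In C3aR-KO and APP-KI; C3aR-KO they gave r of -0.002 to 0.224. Differently numbered libraries gave r of -0.05 to 0.023, -0.223 to 0.201 and -0.234 to 0.241, in the same order. These ranges overlapped, so the numbers were not taken as pairs, although every same-numbered r in WT and APP-KI was above 0. With the replicate block, 18 genes of the set rose and 2 fell in the C3aR-positive comparison, against 1387 and 853 of all 12312 genes. In APP-KI against WT, 0 rose and 1 fell, against 371 and 302 of all 12844. Below an unadjusted p of 0.05 (limma) in that fit were 14 genes of the set, 11 of them higher, against 2250 of all genes. In APP-KI; C3aR-KO against C3aR-KO, 0 rose and 1 fell, against 121 and 30 of all 12153. Groups of 3 and the low-complexity libraries limit what the comparisons of C3aR-KO could show.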
